A study of Homo sapiens with 3 samples.

Results

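The comparison concerns the 2 RWPE1 libraries with the lowest OLFM4 counts, the OLFM4-knockout library and the library labelled OLFM4-active, out of 3 bulk RNA libraries in the series. RWPE1 is an immortalised, non-tumour line of adult human prostate epithelial cells with a basal character. OLFM4-knockout cells had received nickase plasmids against the OLFM4 gene and expressed a green fluorescent protein (GFP) reporter. RNA came from cells sorted for GFP. The study also lists a repair plasmid for OLFM4, without saying which plasmid carried the reporter. The cells labelled OLFM4-active carry that genotype name in the labels, and the study's methods name OLFM4 activation plasmids as the means by which its OLFM4-wild GFP reporter cells were made. Whether the library labelled OLFM4-active came from those reporter cells is not stated in the sources used here. The study speaks of selected lines and clones, and their number is not given in the sources used here. All 3 libraries came from RWPE1, with total RNA depleted of ribosomal RNA, and the OLFM4-wild library is used below for levels alone. The members are genes whose level averaged 1 CPM or more (counts scaled to library depth, with TMM factors) over the 3 libraries, 16600 of the 58037 in the table. Each value compared is the log2 ratio of CPM, OLFM4-knockout over labelled OLFM4-active, so that 1 stands for a 2-fold higher and -1 for a 2-fold lower value in the OLFM4-knockout library. With 1 library per condition no test between conditions exists. The 95% intervals in brackets cover counting error only, and every statement is about these libraries.

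OLFM4 encodes a secreted glycoprotein with an olfactomedin domain and is used as a marker of stem and progenitor cells in several epithelia. Its levels, on chromosome 13 from 53028813 to 53052057 of GRCh38, went against the label of the library labelled OLFM4-active. OLFM4 had 131 counts or 2.55 CPM in the OLFM4-knockout library, 16 counts or 0.670 CPM in the library labelled OLFM4-active and 214 counts or 11.8 CPM in the OLFM4-wild library. The log2 ratio was 1.89 (1.18 to 2.78), so OLFM4 RNA was lower in the library labelled OLFM4-active than in the OLFM4-knockout library. Whether samples or columns were exchanged was not tested, and the direction of every ratio below rests on the labels as deposited. The OLFM4-knockout library totalled 58837147 counts and the library labelled OLFM4-active 23224216, a depth ratio of 2.53. The basal epithelial markers were expressed in both libraries at 8 of 8, with KRT5 the most abundant. Markers of endothelial and neuroendocrine cells were under 1 CPM in both, for 7 and 7 genes. Of 10 fibroblast markers 3 reached 1 CPM in each, summing to 33.4 CPM over all 10 in the OLFM4-knockout library and 24.7 CPM in the other, mostly from COL1A1, with COL3A1 and LUM at 0 in both. Of 10 leukocyte markers CD68 alone reached 1 CPM. Of 7 smooth muscle markers MYH11 alone did so in both libraries, at 10.1 CPM in OLFM4-knockout and 11.9 CPM in the other. It was at 21.4 CPM in the OLFM4-wild library.

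Most genes differed little. The log2 ratio lay between -0.5 and 0.5 for 11246 of 16600 genes (67.7%), the median was 0.08 and the quartiles were -0.26 and 0.40. A ratio above 1 was found for 490 genes, 2.95% of those compared, and one below -1 for 563 genes, 3.39%. Beyond 2 in size there were 43 genes above (0.259%) and 29 below (0.175%). The whole interval was above 1 for 140 genes (0.843%), and for 203 genes (1.22%) it was below -1. An interval wholly above 0 was found for 6613 genes (39.8%) and one wholly below 0 for 4650 genes. The shares of 2.95%, 3.39% and 39.8% belong beside every count below of genes above 1, below -1 or with intervals above 0. Many of the called genes were scarce, since 127 of the 490 and 206 of the 563 averaged 10 CPM or more. Among protein-coding genes RFX5 at 1.002 and C1orf54 at 0.998 lay on either side of 1, RNF24 at -1.0004 and COL8A2 at -0.999 on either side of -1, and C1QL3 with a mean of 1.0003 CPM was the gene just inside the level threshold and FUT2 with 0.999 CPM the one just outside. With library totals in place of TMM every ratio would be lower by 0.24 and the median of all genes -0.16, so the median of all genes is to be kept in mind beside each ratio and each interval, which are set against 0.

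**Figure D1:**
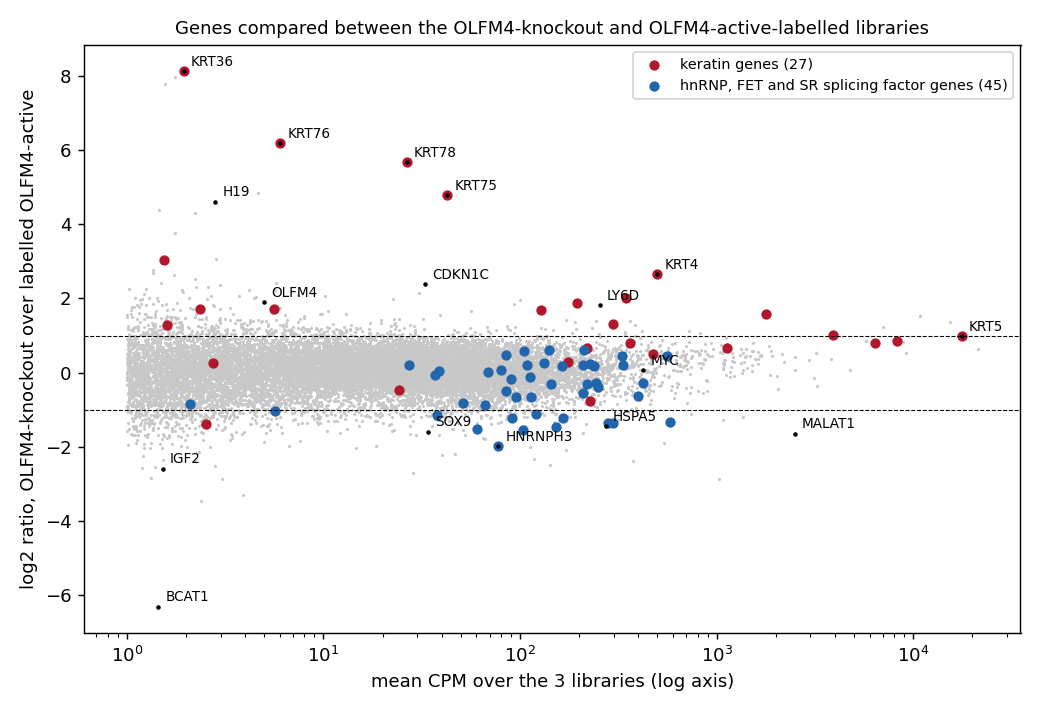
Each point is 1 gene, with its mean CPM over the 3 libraries on a log axis and the log2 ratio of the OLFM4-knockout library over the library labelled OLFM4-active on the vertical axis; dashed lines mark ratios of 1 and -1. Keratin genes (27, red) lie mostly above the centre of the cloud and splicing factor genes (45, blue) spread from its centre downwards. The height of KRT36, with 0 counts in 1 library, depends on the offset of 0.5 counts.

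The ratio was lower for longer genes. The protein-coding genes were split into 5 classes of like size by summed exon length. The shortest class, 348 to 2928 bases, had a median log2 ratio of 0.35, and the following classes had 0.19, 0.09 and -0.03. The longest class, 8982 to 118976 bases, had -0.15. Of the shortest class 5.82% were above 1 and 2.07% below -1, whereas in the longest class 0.938% were above and 3.40% below. Over all protein-coding genes the shares were 2.31% and 2.57%. Medians by chromosome ran from -0.03 for chromosome 13 to 0.21 for chromosome 19. For many lists the median of their members' length classes is given beside their own, and the part of length in any list was not tested.

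**Figure D2:**
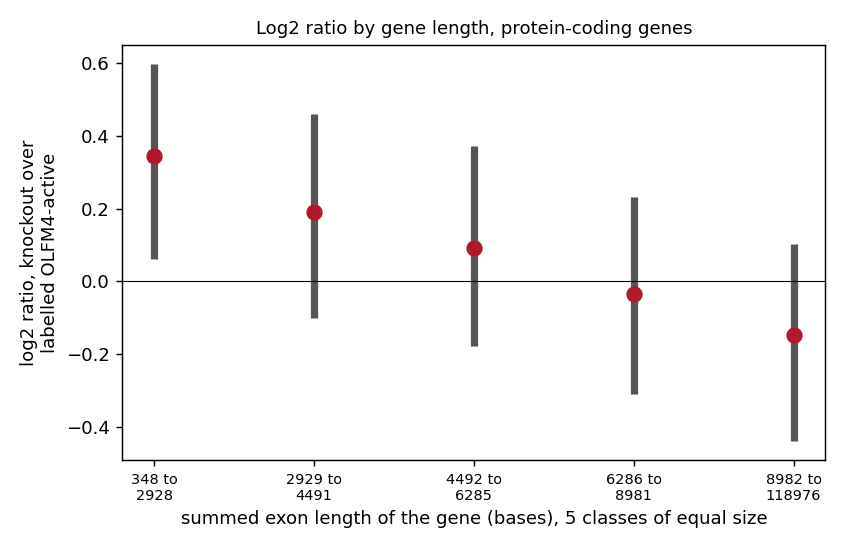
Median (red) and quartiles (grey bars) of the log2 ratio, OLFM4-knockout over labelled OLFM4-active, for protein-coding genes in 5 classes of summed exon length in bases. The median goes from 0.35 in the shortest class to -0.15 in the longest.

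Many keratin genes were higher in the OLFM4-knockout library. Keratins are the intermediate filament proteins of epithelia, and each filament pairs a type I with a type II keratin, whose genes lie in clusters on chromosomes 17 and 12. KRT5 and KRT14 form the pair of basal cells, KRT6, KRT16 and KRT17 belong to activated and wounded epithelium, KRT4 and KRT13 to the suprabasal layers of moist stratified epithelia, KRT1 and KRT10 to the epidermis, and KRT8 and KRT18 to simple epithelia. Of the 55 keratin genes 27 passed the level threshold, with a median of 1.27. Of these 15 had a ratio above 1 (55.6%) and 1 below -1 (3.70%), beside 2.31% and 2.57% of all protein-coding genes. The whole family was counted after its high members had been seen, so these numbers are a description. Among the 21 expressed genes of a shorter keratin list 10 were above 1, with a median of 0.98 against 0.35 for their length classes. On chromosome 12, 11 of 17 expressed keratin genes had a ratio above 1, and on chromosome 17, 4 of 10. Keratin genes held 5.54% of all counts in the OLFM4-knockout library, 3.35% in the library labelled OLFM4-active and 3.41% in the OLFM4-wild library. In bulk RNA, more keratin-rich cells and more keratin RNA per cell cannot be told apart.

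The promoter sequences of 7 keratin genes are shown because these RNAs were all higher in the OLFM4-knockout library by very different amounts. KRT76, KRT75, KRT4, KRT79 and KRT36 had ratios above 2 and KRT5 and KRT10 ratios under 1. Each gives the 120 bases before the RefSeq start on the gene's own strand in GRCh38.p14, with the ATAA of the TATA-type element in capitals. For KRT36 the RefSeq start lies inside the longer gene span given for it below, so its bases lie within that span.
KRT76 (chr12:52777346-52777465, minus strand): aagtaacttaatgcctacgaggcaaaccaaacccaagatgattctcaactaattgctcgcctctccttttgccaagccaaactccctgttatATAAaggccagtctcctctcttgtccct
KRT75 (chr12:52434372-52434491, minus strand): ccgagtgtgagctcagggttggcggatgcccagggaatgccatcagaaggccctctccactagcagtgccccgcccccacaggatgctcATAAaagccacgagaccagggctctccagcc
KRT4 (chr12:52814117-52814236, minus strand): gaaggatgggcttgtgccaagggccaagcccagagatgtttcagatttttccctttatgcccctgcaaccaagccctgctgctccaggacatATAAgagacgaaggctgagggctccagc
KRT79 (chr12:52834312-52834431, minus strand): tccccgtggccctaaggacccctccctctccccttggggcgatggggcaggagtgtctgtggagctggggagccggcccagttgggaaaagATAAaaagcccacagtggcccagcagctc
KRT36 (chr17:41489911-41490030, minus strand): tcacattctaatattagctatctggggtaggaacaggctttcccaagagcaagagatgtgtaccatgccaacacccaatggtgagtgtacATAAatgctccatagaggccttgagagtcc
KRT5 (chr12:52520395-52520514, minus strand): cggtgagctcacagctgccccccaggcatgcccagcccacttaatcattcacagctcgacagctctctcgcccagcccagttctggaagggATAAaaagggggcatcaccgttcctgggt
KRT10 (chr17:40822615-40822734, minus strand): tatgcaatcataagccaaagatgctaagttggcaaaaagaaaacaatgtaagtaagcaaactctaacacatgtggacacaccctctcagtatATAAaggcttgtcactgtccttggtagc
ATAA on the gene strand between 40 and 20 bases before the start was present in 7 of the 7 promoters read, against 8.04% of 35116 promoters. KRT5 and KRT10 held it, as did KRT76, KRT75, KRT4, KRT79 and KRT36. KRT78 and KRT13, with ratios also above 2, were not among the promoters read. No keratin gene lower in the OLFM4-knockout library was read either. TGANTCA, the letters of an AP-1 site, was in 0 of the 7 within 250 bases before the start on either strand, and 6.57% of all promoters held it. The ATAA search was chosen after the sequences had been seen.

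KRT78, on chromosome 12 from 52837804 to 52849092, had the highest ratio of the protein-coding genes that averaged 10 CPM or more. It had 2042 counts or 39.8 CPM in the OLFM4-knockout library, 18 counts or 0.753 CPM in the library labelled OLFM4-active and 39.02 CPM in the OLFM4-wild library, a log2 ratio of 5.68 (5.06 to 6.48). The low value was thus that of the library labelled OLFM4-active. KRT75, a hair follicle keratin on chromosome 12 from 52424070 to 52434371, had 5576 counts or 109 CPM, 94 counts or 3.93 CPM and 277 counts or 15.2 CPM in the same order, a ratio of 4.78 (4.49 to 5.10). Here the 3 libraries were all apart, with OLFM4-wild in the middle. ENSG00000257500 overlaps KRT75 on the opposite strand. Its counts per 100 of KRT75 were 11.7 in OLFM4-knockout, 10.6 in the library labelled OLFM4-active and 5.05 in OLFM4-wild. The value of 10.6 rests on the 94 counts of KRT75 in that library.

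KRT76, a keratin of the hard palate and gum, on chromosome 12 from 52768155 to 52777345, had 863 counts, 5 counts and 20 counts, with a ratio of 6.19 (5.10 to 7.95). KRT36, a hair keratin on chromosome 17 from 41486136 to 41492546, reached 300 counts in OLFM4-knockout, with 0 in each of the others. Against the limit of 3 counts this was at least 46.5-fold higher. KRT76 and KRT36 passed the level threshold only through the OLFM4-knockout library, and both count among the keratin genes above 1. KRT36 lies 8.43 kb from KRT13 on the same strand, and its counts were 0.930 per 100 of KRT13 in the OLFM4-knockout library. KRT79, on chromosome 12 from 52821408 to 52834311, was scarce, with 131 and 7 counts and a ratio of 3.03 (2.04 to 4.47). KRT2, KRT71 and KRT3, at 9.96 CPM or less in each library, were at 1.72, 1.72 and 1.27.

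The pair of moist stratified epithelia was abundant and separated the libraries by far more than the counting error. KRT4, on chromosome 12 from 52806549 to 52814116, had 1053 CPM in the OLFM4-knockout library, 167 CPM in the library labelled OLFM4-active and 279 CPM in the OLFM4-wild library, a ratio of 2.66 (2.61 to 2.71). KRT13, its partner on chromosome 17 from 41500981 to 41505705, was at 628, 156 and 255 CPM in that order, a ratio of 2.01 (1.96 to 2.06). Both were highest in the OLFM4-knockout library and lowest in the library labelled OLFM4-active. KRT15, a basal keratin often used as a progenitor marker, on chromosome 17 from 41513745 to 41522529, had 359, 97.2 and 127 CPM and a ratio of 1.89 (1.82 to 1.95).

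The activation keratins were also higher. KRT16 had 2952 CPM against 991 CPM, a ratio of 1.57 (1.55 to 1.59), and KRT6B had 1.68 (1.59 to 1.77). KRT6C had 1.32 (1.28 to 1.37) and KRT6A 1.02 (1.01 to 1.03). The KRT6 genes are near-identical copies, and KRT16 has a near-identical pseudogene, KRT16P3, so that uniquely mapped reads may divide unevenly among them and single values are uncertain. The basal keratins KRT5, KRT14 and KRT17 had smaller ratios of 0.98 (0.98 to 0.99), 0.80 (0.79 to 0.81) and 0.85 (0.84 to 0.86). Per kilobase of exon, KRT5 was the most abundant keratin in the OLFM4-knockout library, at 6551 CPM per kb, followed by KRT14 at 4287 and KRT17 at 4021.

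Simple epithelial keratins and the epidermal pair KRT1 and KRT10 differed less. The 5 expressed simple epithelial keratins had a median of 0.50 against 0.19 for their length classes, with 0.80 for KRT19, 0.66 for KRT8, 0.50 for KRT7 and 0.28 for KRT18. In the epidermal pair KRT10 had 0.66 (0.64 to 0.68), while KRT1 was the other way, at 80.2 CPM in the OLFM4-knockout library, 137 CPM in the library labelled OLFM4-active and 463 CPM in the OLFM4-wild library. The ratio of KRT1 was -0.78 (-0.84 to -0.71). KRT80 and KRT9 were lower in the OLFM4-knockout library as well, at -0.47 (-0.62 to -0.31) and -1.39 (-1.86 to -0.93). The direction was therefore not shared by the whole family. The ratios of KRT18 and of KRT23, the latter 0.25 (-0.46 to 1.05), were about as large as the shift of 0.24 between scalings.

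**Figure D3:**
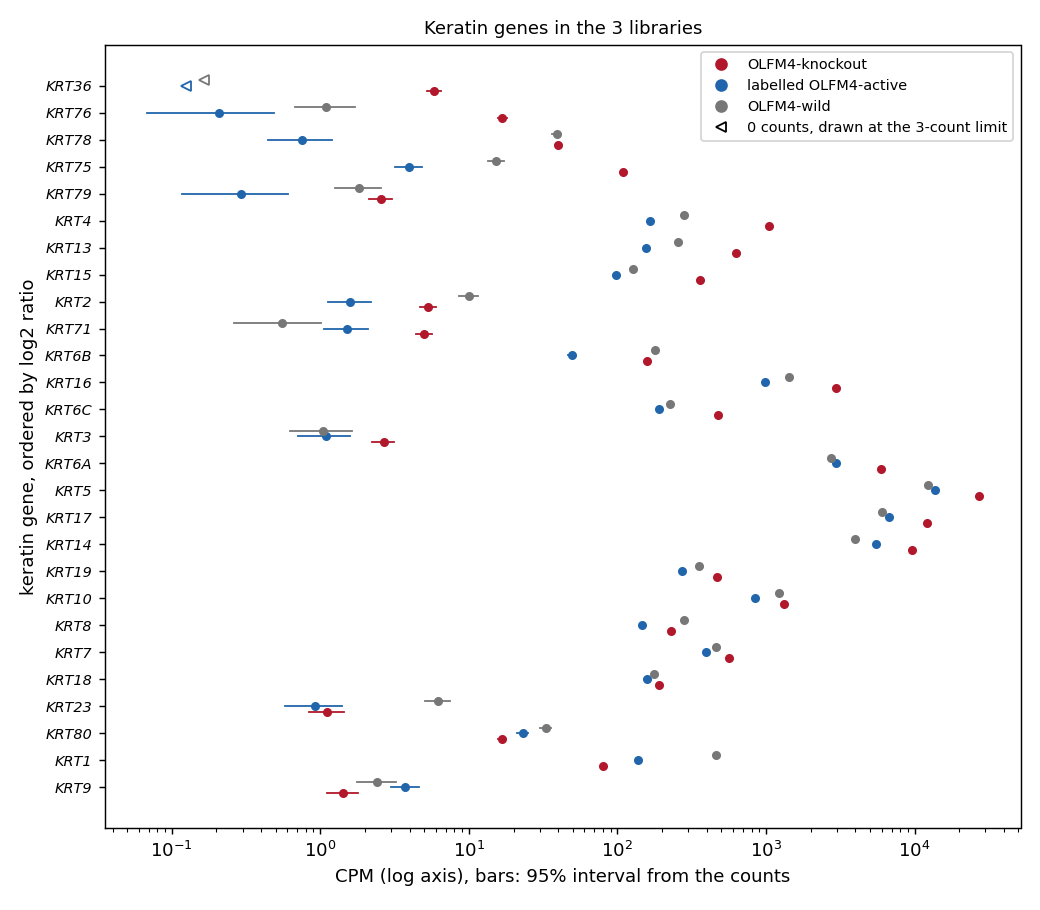
CPM on a log axis of the 27 keratin genes that passed the level threshold, in the OLFM4-knockout library (red), the library labelled OLFM4-active (blue) and the OLFM4-wild library (grey), with 95% counting intervals; open triangles mark 0 counts at the 3-count limit. The red point lies to the right of the blue one for the genes from KRT36 down to KRT23, and to its left for KRT80, KRT1 and KRT9.

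Several surface and secreted proteins of stratified epithelium were higher in the OLFM4-knockout library too. LY6D, a GPI-anchored surface protein of squamous and basal cells, had 508 CPM, 144 CPM and 112 CPM in the OLFM4-knockout, OLFM4-active-labelled and OLFM4-wild libraries, a ratio of 1.82 (1.77 to 1.87). Of the 11 expressed genes of the LY6 and uPAR family 3 were above 1 and 0 below -1, with a median of 0.41 against 0.19 for their length classes, and the other 2 above 1 were LYPD1 at 1.17 (0.81 to 1.56) and PSCA, prostate stem cell antigen, at 1.14 (0.54 to 1.83). Of 5 expressed kallikrein-related peptidases, the serine proteases that trim barrier and secreted proteins, 4 were above 1, beside 2.31% of all protein-coding genes. Their median was 1.20 against 0.35 for their length classes. The 4 were KLK11 at 1.28 (1.06 to 1.52), KLK10 at 1.27 (1.14 to 1.41), KLK5 at 1.20 (1.001 to 1.41) and KLK8 at 1.02 (0.47 to 1.64). MSLN, the surface glycoprotein mesothelin, on chromosome 16 from 760734 to 768865, had 114, 35.9 and 19.9 CPM and a ratio of 1.67 (1.57 to 1.77). GPR15LG, a secreted ligand of the receptor GPR15 made by squamous epithelia, had 24.2, 6.15 and 37.8 CPM and a ratio of 1.97 (1.73 to 2.23), here with OLFM4-wild the highest.

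The enzymes of the epidermal barrier and the proteins they crosslink differed in their ratios. Of 11 expressed genes listed as crosslinking and barrier enzymes 7 were above 1 and 0 below -1, with a median of 1.15 against 0.35 for their length classes. ALOXE3 went the other way, at -0.80, and 2 of the 11 intervals lay wholly below 0. The medians of the single genes' lower and upper interval ends were 0.22 and 1.27, and 3 intervals lay wholly above 1. These ends describe single genes and give no interval for the median of the list. TGM1, the membrane-bound transglutaminase, was the abundant one, with 363 CPM against 157 CPM and a ratio of 1.21 (1.16 to 1.27). CALML3, like CALML5 a calmodulin-like protein listed with the enzymes, had 1.06 (0.98 to 1.15). The other 5 were scarce, with 85 and 8 counts for SDR9C7, 65 and 4 for CALML5, 54 and 7 for TGM5, 43 and 8 for TGM3 and 40 and 8 for ASPRV1. These 5 passed the level threshold only through the OLFM4-wild library, in which they had 1.87 to 3.74 CPM. In contrast, 20 expressed envelope proteins had a median of -0.05, with 1 above 1 and 1 below -1. The one above was CRNN with 3 and 0 counts, within the 3-count limit in both libraries and without meaning as a ratio. Filaggrin, FLG, had 5.92 CPM and 6.49 CPM, a ratio of -0.13 (-0.42 to 0.16), and involucrin, IVL, had -0.04 (-0.27 to 0.19), so both intervals included 0. FLG was at 191 CPM in the OLFM4-wild library, far above both. Protease inhibitors of the serpin B clade had a median of 0.61, against 0.19 for their length classes, over 11 expressed genes with 0 beyond 1 in either direction, from 0.99 for SERPINB11 to -0.53 for SERPINB1.

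Adhesion genes were near the median of all genes. The 12 expressed desmosome genes had a median of 0.17, from 0.77 for PERP to -0.44 for DSC1, and 0 of them were beyond 1. The 15 genes of hemidesmosomes, laminin-332 and basal integrins had a median of 0.04, with COL17A1 at 0.49 and ITGA6 at 0.46 on one side and ITGA2 at -0.48 on the other. The 15 expressed tight junction genes had a median of 0.27, with TJP3 at 1.22 (0.55 to 2.02) above 1, CLDN4 at 0.83 and CLDN1 at -0.79. TP63, the master factor of basal epithelium, had 0.07 (0.04 to 0.10) and E-cadherin, CDH1, had -0.05 (-0.09 to -0.01). Both libraries thus held like levels of the basal factor while their keratins differed.

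**Figure D4:**
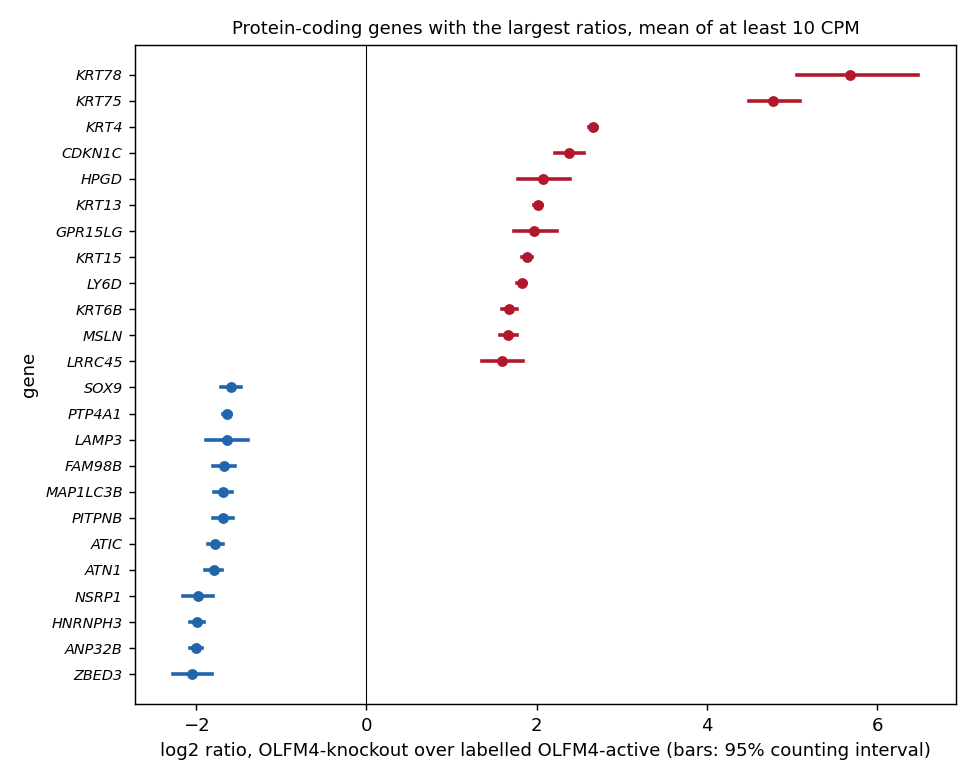
Log2 ratio of the OLFM4-knockout library over the library labelled OLFM4-active, with 95% counting intervals, for the 12 protein-coding genes with the highest (red) and the 12 with the lowest ratio (blue) among genes that averaged 10 CPM or more. Of the 12 highest 6 are keratin genes, and KRT78 and KRT75 lie above 4.

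Among the other genes with the highest ratios, 1 belongs to the imprinted region at the end of the short arm of chromosome 11. There the maternal copy expresses H19 and CDKN1C and the paternal copy IGF2 and the antisense RNA KCNQ1OT1. CDKN1C, an inhibitor of cyclin-dependent kinases, on chromosome 11 from 2883213 to 2885775, had 3611 counts or 70.3 CPM in the OLFM4-knockout library, 322 counts or 13.5 CPM in the library labelled OLFM4-active and 15.1 CPM in the OLFM4-wild library, a ratio of 2.38 (2.22 to 2.55). H19, a long noncoding RNA on chromosome 11 from 1995166 to 2004552, had 342, 6 and 28 counts and a ratio of 4.62 (3.59 to 6.19). H19 passed the level threshold only through the OLFM4-knockout library. TSSC4 was the third gene of the region above 1, at 1.08 (0.92 to 1.25). On the other side were IGF2, which passed the level threshold only through OLFM4-wild, with 5, 15 and 70 counts and -2.60 (-4.50 to -1.15), and KCNQ1OT1, at 19.9 against 37.8 CPM and -0.92 (-1.06 to -0.79). PHLDA2 and SLC22A18, also maternally expressed, were at 0.05 (-0.08 to 0.18) and 0.07 (-0.15 to 0.29), and NAP1L4 and CD81 at -0.13 and -0.19, so no direction was shared by the region. The 9 expressed genes of this list, put together after the values had been seen, had 3 above 1, 1 below -1 and a median of 0.05. Allelic expression was not measured here.

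HPGD, which degrades prostaglandins, had 18.02, 4.27 and 8.42 CPM in the OLFM4-knockout, OLFM4-active-labelled and OLFM4-wild libraries and a ratio of 2.07 (1.78 to 2.39). LRRC45, a centrosomal linker protein, had 1.59 (1.36 to 1.84). DDIT4, a stress-induced inhibitor of mTOR complex 1 signalling, had 277 CPM against 106 CPM and a ratio of 1.39 (1.33 to 1.45), below its OLFM4-wild level of 352 CPM. AKR1B10, an aldo-keto reductase and NRF2 target, had 2.22 (1.75 to 2.75). PLAT, tissue plasminogen activator, had 1.75 (1.41 to 2.13), and the matrix genes FN1 and COL1A2 had 1.20 (1.12 to 1.27) and 2.35 (1.77 to 3.05).

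Among targets of bone morphogenetic proteins (BMPs) and of TGF-beta, the ID genes were higher in the OLFM4-knockout library and several TGF-beta targets were lower. BMPs signal through SMAD1 and SMAD5 to ID genes, which encode inhibitors of basic helix-loop-helix factors, and to the inhibitory SMAD6 and SMAD7, whereas TGF-beta signals through SMAD2 and SMAD3 to matrix and cytoskeletal genes. Of 13 expressed targets and feedback genes of both branches 4 were above 1, and these were ID1, ID2, ID3 and SMAD6. ID1, on chromosome 20 from 31605283 to 31606515, had 595 CPM in the OLFM4-knockout library, 225 CPM in the library labelled OLFM4-active and 262 CPM in the OLFM4-wild library, a ratio of 1.40 (1.36 to 1.44). ID3, on chromosome 1 from 23557926 to 23559501, had 270.2, 120.4 and 184 CPM and a ratio of 1.17 (1.11 to 1.22). For both, the library labelled OLFM4-active was the lowest. ID2 had 15.2 and 7.32 CPM and 1.05 (0.81 to 1.30), with 44.03 CPM in the OLFM4-wild library. SMAD6 was at 1.15 (0.91 to 1.41) and SMAD7 at 0.88 (0.64 to 1.12). The TGF-beta targets CCN2, SKIL and PMEPA1 were lower in the OLFM4-knockout library, at -0.97 (-1.10 to -0.84), -0.68 (-0.75 to -0.60) and -0.54 (-0.60 to -0.49), as was the ligand gene TGFB1 at -0.81 (-0.91 to -0.72). TGFBI, also a TGF-beta target, was the other way at 0.63 (0.61 to 0.65), as were the matrix genes FN1 and COL1A2 above, so the branches did not part cleanly. The median of the 13 was 0.09, that of the 12 expressed ligands and antagonists -0.22, and the division into branches was made after the values had been seen.

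Promoters of the 3 ID genes are shown because their RNAs were all higher in the OLFM4-knockout library. They are given in the same way, with ATAA, present in 3 of the 3, in capitals.
ID1 (chr20:31605169-31605288, plus strand): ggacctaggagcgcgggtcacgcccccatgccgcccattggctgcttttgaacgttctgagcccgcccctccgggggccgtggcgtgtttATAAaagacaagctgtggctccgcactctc
ID2 (chr2:8681936-8682055, plus strand): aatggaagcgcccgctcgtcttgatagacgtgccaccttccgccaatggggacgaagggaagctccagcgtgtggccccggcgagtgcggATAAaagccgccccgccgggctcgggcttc
ID3 (chr1:23559502-23559621, minus strand): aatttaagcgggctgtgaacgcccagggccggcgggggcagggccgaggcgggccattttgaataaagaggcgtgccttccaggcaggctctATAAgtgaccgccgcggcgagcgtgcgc
The same search found TGANTCA in 0 of these 3 promoters.

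On the other side, the genes higher in the library labelled OLFM4-active held a group of RNA-binding proteins. Heterogeneous nuclear ribonucleoproteins (hnRNPs), FET proteins and SR proteins bind nascent transcripts and set their splicing. HNRNPH3, on chromosome 10 from 68331174 to 68343193, had 32.9 CPM in the OLFM4-knockout library, 130.5 CPM in the library labelled OLFM4-active and 68.9 CPM in the OLFM4-wild library, a ratio of -1.99 (-2.08 to -1.90). TAF15 had -1.53 (-1.63 to -1.43), while the related EWSR1 had -0.11 (-0.17 to -0.04). HNRNPA3, HNRNPA2B1 and HNRNPA1 had -1.46, -1.36 and -1.23, PCBP2 had -1.37 and the splicing scaffold SRRM2 -1.34. HNRNPA1 has near-identical copies such as HNRNPA1L2, so its single value is uncertain.

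The direction was not shared by the whole group. Of 45 expressed genes 12 were below -1 (26.7%, beside 2.57% of all protein-coding genes), with 0 above 1. The median was -0.30 against -0.03 for their length classes. The SR protein genes ranged from 0.61 (0.56 to 0.65) for SRSF2 and 0.59 for SRSF7 to -0.50 for SRSF5, so 0 of them were below -1. HNRNPC and HNRNPF were higher in the OLFM4-knockout library, at 0.46 and 0.46. The list was put together after several hnRNP genes had been seen among the low ratios, so its count is a description. The 12 include HNRNPA1 and its near-identical copies HNRNPA1L2 at -1.05 and HNRNPA1L3 at -1.15, so they may not all be separate signals.

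The other genes with the lowest ratios were of mixed function. ANP32B, an acidic histone chaperone, had 45.8, 183 and 107 CPM in the OLFM4-knockout, OLFM4-active-labelled and OLFM4-wild libraries and a ratio of -2.001 (-2.07 to -1.93). ZBED3, an axin-binding regulator of WNT signalling, had 4.73, 19.5 and 19.5 CPM and -2.04 (-2.28 to -1.82), so that here the OLFM4-knockout library was the one apart. NSRP1, a splicing regulator, had -1.98 (-2.16 to -1.80), the corepressor gene ATN1 -1.79 (-1.89 to -1.70) and ATIC, the enzyme of the last steps of purine synthesis, -1.77 (-1.86 to -1.69). PITPNB, a phosphatidylinositol transfer protein, had -1.69, the autophagy gene MAP1LC3B -1.68, FAM98B, a subunit of the tRNA ligase complex, -1.67, the lysosomal membrane gene LAMP3 -1.64 and the phosphatase gene PTP4A1 -1.64.

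SOX9, a transcription factor of epithelial progenitor cells, on chromosome 17 from 72121020 to 72126416, had 20.4 CPM in the OLFM4-knockout library, 61.4 CPM in the library labelled OLFM4-active and 20.5 CPM in the OLFM4-wild library. The OLFM4-knockout and OLFM4-wild levels were thus alike and the ratio was -1.59 (-1.71 to -1.48). BCAT1, the cytosolic branched-chain amino acid transaminase, on chromosome 12 from 24810024 to 24949101, was scarce, with 2 counts in the OLFM4-knockout library, 92 in the library labelled OLFM4-active and 8 in the OLFM4-wild library. Its ratio of -6.31 (-9.69 to -4.73) was the lowest of all genes compared and rests on those 2 counts. BCAT1 passed the level threshold only through the library labelled OLFM4-active. KLF8, a zinc finger factor, had 30 and 103 counts and -2.87 (-3.52 to -2.28), and WNT6 had 20 and 35 counts and -1.90 (-2.78 to -1.08). BCAT1 and KLF8 were picked after their values had been seen.

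Stress and growth factor feedback genes were in part lower in the OLFM4-knockout library. HSPA5, the chaperone of the endoplasmic reticulum, had 163 CPM against 444 CPM, a ratio of -1.44 (-1.48 to -1.40), and ASNS, asparagine synthetase, had -1.09 (-1.15 to -1.03). Yet the 34 expressed genes of amino acid and unfolded protein stress had 1 above 1, 3 below -1 and a median of -0.04, and DDIT3 was at -0.22 (-0.42 to -0.02). ERK signalling induces its own brakes, the DUSP phosphatases and SPRY and SPRED proteins, and the ETV factors. Of 17 such feedback and target genes 2 were below -1, ETV5 at -1.28 (-1.47 to -1.10) and SPRED2 at -1.02 (-1.11 to -0.92), with a median of -0.28 against 0.09 for their length classes. ETV4 and SPRY1 had -0.90 and -0.94, whereas DUSP6 had 0.67 (0.60 to 0.75). EGFR itself had 1744 and 2365 CPM and -0.44 (-0.45 to -0.42). Of 19 immediate early genes, median -0.09, EGR1 and FOSL1 were at -0.97 (-1.01 to -0.93) and -0.90 (-0.98 to -0.81) and JUNB at 1.04 (0.997 to 1.08) and FOS at 0.57 (0.54 to 0.60).

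Noncoding RNAs parted in both directions. RN7SL1, the RNA of the signal recognition particle, had 18537 CPM against 6482 CPM and a ratio of 1.52 (1.51 to 1.52), and RN7SL1 and RN7SL2 together took 4.02% of counts in the OLFM4-knockout library, 1.77% in the library labelled OLFM4-active and 1.68% in the OLFM4-wild library. SNORD3B-1, a copy of the U3 snoRNA gene, had 1.55 (1.43 to 1.67), and reads of its near-identical copies may be divided unevenly. Of the other noncoding genes with the highest ratios, ENSG00000229732 overlaps KRT13 and ENSG00000253715 overlaps LY6D on the opposite strand, with ratios of 1.96 and 1.84. Their counts per 100 of the overlapped gene were 28.3 and 29.3 for the first and 36.8 and 36.3 for the second in the OLFM4-knockout and OLFM4-active-labelled libraries, so each followed its partner. ENSG00000232176 and ENSG00000280071, which overlap no other gene, had 2.14 and 1.66.

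MALAT1, a nuclear RNA of speckles, had 1051 CPM in the OLFM4-knockout library, 3304 CPM in the library labelled OLFM4-active and 3134 CPM in the OLFM4-wild library, a ratio of -1.65 (-1.67 to -1.64). NEAT1, the RNA of paraspeckles, had -0.56 (-0.60 to -0.52) and TUG1 -0.91 (-0.98 to -0.83), whereas the whole list of 27 expressed noncoding RNAs had a median of 0.12. The lowest noncoding ratios were those of ENSG00000280614 and ENSG00000281383 in the ribosomal RNA repeats of chromosome 21, at -2.87 and -2.48, and of RNA5SP202 at -2.24, MIR663AHG at -2.38 and the mitochondrial pseudogenes MTND2P28 and MTATP6P1 at -2.70 and -2.32. ENSG00000280614 had 65.4 and 479 CPM beside 2539 CPM in the OLFM4-wild library. The 6 noncoding genes of these repeats took 0.0161%, 0.0884% and 0.744% of counts in the OLFM4-knockout, OLFM4-active-labelled and OLFM4-wild libraries. The mitochondrial genome's own genes have 0 counts in the table. The part of ribosomal RNA depletion in other ratios was not tested.

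MYC did not separate the libraries. It had 26194 counts or 510.3 CPM in the OLFM4-knockout library and 11613 counts or 486 CPM in the library labelled OLFM4-active, a ratio of 0.07 (0.04 to 0.10), with 274 CPM in the OLFM4-wild library. Its ratio was close to the median of all genes, 0.08. The 74 genes induced by MYC had a median of 0.12, with 0 above 1 and 0.79 for ENO1 at the top. NCL, TYMS and ATIC, at -1.28, -1.04 and -1.77, were the 3 below -1 (4.05%, beside 2.57% of all protein-coding genes). Factors of ribosome biogenesis, 90 genes, had a median of 0.05 with 1 above 1, NOC4L at 1.22 (1.02 to 1.42), and 1 below -1, GAR1 at -1.34 (-1.56 to -1.12). ODC1, the first enzyme of polyamine synthesis and a MYC target, had 1425 CPM and 938 CPM, a ratio of 0.60 (0.58 to 0.63).

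The protein parts of ribosomes and of the respiratory chain were for the most part higher in the OLFM4-knockout library, by less than 2-fold. The 79 cytosolic ribosomal protein genes had a median of 0.45, quartiles of 0.34 and 0.54, and 74 intervals wholly above 0, against 0.19 for their length classes. The 77 mitochondrial ones had a median of 0.37, against 0.35 for their length classes. The 75 nuclear genes of the respiratory chain and ATP synthase had a median of 0.59 and 67 intervals above 0, against 0.35 for their length classes, and 3 were above 1, NDUFA2, NDUFB7 and NDUFA1 of complex I at 1.14, 1.10 and 1.01. With library totals these 3 medians were 0.22, 0.14 and 0.35 beside -0.16 for all genes. RPS16 was the 1 ribosomal protein gene below -1, at -1.12 (-1.18 to -1.06), and as these genes have many pseudogenes its value is uncertain. The 31 proteasome genes had a median of 0.31 against 0.19 for their length classes, with PSMB3 at 0.79 and PSMD12 at -0.92 at the ends.

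Sterol synthesis and glycolysis also lay above the median of all genes. Of 24 cholesterol genes 20 had intervals above 0, with a median of 0.55 against 0.09 for their length classes, MVK, mevalonate kinase, at 1.17 (1.02 to 1.31), FDPS at 0.83 and HMGCS1 at -0.02. SREBF2, the factor that drives them, was lower, at -0.75 (-0.81 to -0.68). The 18 glycolysis genes had a median of 0.56 against 0.09, with TPI1 at 1.09 (1.05 to 1.13) and PGAM1 at 0.95, while HK2 and LDHA were at -0.52 and -0.28. The 20 hypoxia-induced genes had a median of 0.01, with CA9 at 1.10 (0.66 to 1.58) and EGLN3 at -1.10 (-2.10 to -0.11).

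**Figure D5:**
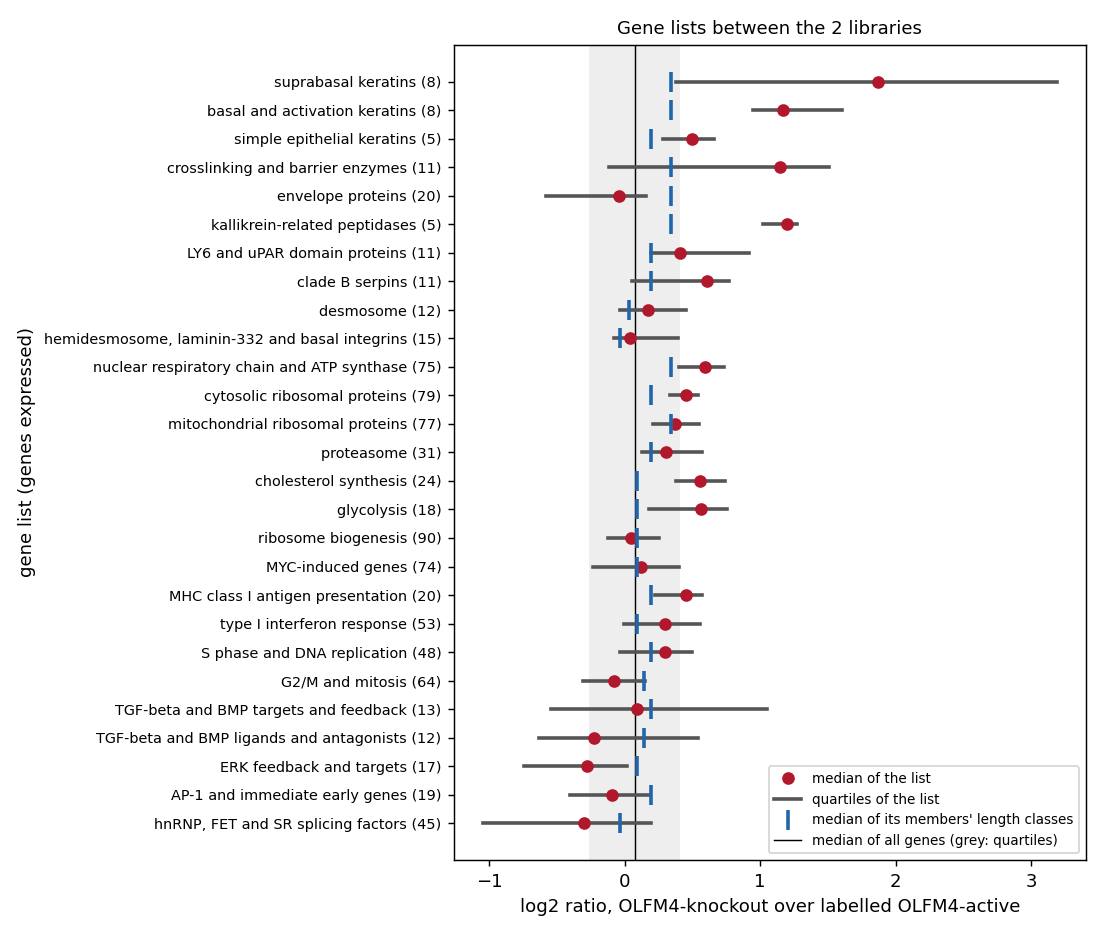
Median (red point) and quartiles (dark bar) of the log2 ratio, OLFM4-knockout over labelled OLFM4-active, for 27 gene lists treated in the text, with the number of expressed genes in brackets; the black line and grey band give the median 0.08 and quartiles of all genes, and blue ticks the median of the members' length classes. Of the lists drawn, suprabasal keratins, kallikreins, basal and activation keratins and barrier enzymes have the highest medians, of 1.87, 1.20, 1.17 and 1.15, and splicing factors and ERK feedback genes the lowest, of -0.30 and -0.28.

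Cell cycle genes gave small and mixed ratios. The 48 genes of S phase and DNA replication had a median of 0.30 against 0.19 for their length classes, with POLD1 at 0.87, MCM3 at 0.83 and MCM2 at 0.82, and TYMS the 1 gene below -1. The 64 genes of G2/M and mitosis had a median of -0.08, 0 above 1 and 2 below -1. MKI67, the proliferation antigen, had 402 CPM in the OLFM4-knockout library, 874 CPM in the library labelled OLFM4-active and 943 CPM in the OLFM4-wild library, a ratio of -1.12 (-1.15 to -1.09), and CKAP2L had -1.001 (-1.11 to -0.90). CCND1 was equal in both, at 197 and 197 CPM, CCNE1 had 1.05 (0.81 to 1.29) and CDKN1A 0.45 (0.38 to 0.52). The 25 p53 targets had a median of 0.12 with BBC3 at 1.09 (0.63 to 1.61) above 1.

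Interferon genes were a little higher in the OLFM4-knockout library. The 53 expressed genes of the type I response, which cells make on sensing viral nucleic acid, had a median of 0.30, against 0.09 for their length classes, with 3 above 1 and 0 below -1. ISG15, the ubiquitin-like modifier, had 57.95, 27.00 and 58.7 CPM in the OLFM4-knockout, OLFM4-active-labelled and OLFM4-wild libraries and a ratio of 1.10 (0.98 to 1.23), and EPSTI1 and IFI44L had 1.51 (1.11 to 1.96) and 1.13 (0.37 to 2.04). MX1 had 15.1 and 9.92 CPM, both far under 93.8 CPM in the OLFM4-wild library. Antigen presentation by MHC class I, 20 genes, had a median of 0.45 against 0.19 for its length classes, 16 intervals above 0 and PSMB10, the immunoproteasome subunit, at 1.33 (1.15 to 1.52) above 1. Of 37 expressed genes of NF-kB signalling, cytokines and epithelial defence 4 were above 1 and 1 below -1, with a median of 0.21. The most abundant of the 4 was CXCL14, an epithelial chemokine, at 663 against 304 CPM and 1.13 (1.09 to 1.16), while TNFAIP3, the NF-kB inhibitor, was at -0.99 (-1.27 to -0.71).

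Several programmes had medians near that of all genes. The 33 expressed WNT genes had a median of 0.07 with WNT6 the 1 beyond 1 in size, and WNT10A and WNT7B at 0.83 and -0.95. The 16 Notch genes had 0.20, the 14 polyamine genes 0.06 and the 25 genes of epithelial-mesenchymal transition 0.16, with VIM at 0.16 (0.11 to 0.22). Metallothioneins, the metal-binding proteins, differed little, with MT2A at -0.03 (-0.07 to 0.01), MT1E at 0.06 (0.01 to 0.10) and MT1X at 0.52 (0.41 to 0.62), and 6 expressed genes had a median of -0.01. Of the olfactomedin family OLFML2A alone was expressed besides OLFM4, at 73.97 and 78.98 CPM. Prostate luminal and club markers were scarce in both libraries: KLK2 and KLK3 were at 0 and LCN2 had 40 and 40 counts, a ratio of -1.10 (-1.77 to -0.43).

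The remaining lists held few genes beyond 1. Of 62 translation factors and tRNA synthetases 3 were below -1, the initiation factors EIF5B at -1.40 (-1.48 to -1.31), EIF1 at -1.38 (-1.43 to -1.33) and EIF3A at -1.03 (-1.07 to -0.99), with a median of 0.12. The 22 chaperones had a median of 0.24 and 2 above 1, the small heat shock protein HSPB1 at 1.07 (1.04 to 1.09) and HSPA1B at 1.03, whose near-identical copy HSPA1A makes the value uncertain. HSP90AA1 was the other way, at -0.99. Of the 22 intervals 17 lay wholly above 0 and 5 wholly below. The 29 genes of NRF2 and antioxidant defence had a median of 0.31 against 0.19 for their length classes, with AKR1B10 and PIR above 1. Their intervals lay wholly above 0 for 17 and wholly below 0 for 8. NFE2L2, SLC7A11, ME1 and ABCC3 were lower in the OLFM4-knockout library, at -0.56, -0.64, -0.65 and -0.77, and HMOX1 was at -0.18. The 21 expressed lineage factors had a median of 0.08, with GATA2 at 1.12 (0.73 to 1.55) above 1 and SOX9 and TFAP2A below -1, the latter at -1.02 (-1.12 to -0.92). Of 12 expressed prostate stem and progenitor surface markers LY6D and PSCA were above 1 and DPP4 below -1 at -1.14 (-1.82 to -0.46), with a median of -0.01. The 13 expressed androgen response genes had a median of 0.23, with HPGD and SLC45A3 above 1. The 25 genes of nucleotide synthesis had a median of -0.02, with ATIC and TYMS below -1, and the 12 fatty acid synthesis genes 0.17, with ELOVL6 at -1.04 (-1.15 to -0.92).

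The OLFM4-wild level was set beside both libraries for the called genes. Of the 127 genes above 1 that averaged 10 CPM or more, OLFM4-wild lay between both libraries for 77, above both for 15 and below both for 35, and it was nearer to the library labelled OLFM4-active for 89 (70.1%). For the 206 genes below -1 at that level it lay between for 154 and was nearer to the library labelled OLFM4-active for 140 (68.0%). Among all 10597 genes at that level it was nearer to the library labelled OLFM4-active for 60.6%. With scarce genes included it was nearer to the library labelled OLFM4-active for 229 of 490 genes above 1 (46.7%) and 389 of 563 below -1 (69.1%), beside 57.8% of all genes compared. The 3 levels come from 1 library each, and these shares carry no test.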

How the data were processed

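The deposited table holds raw read counts for 58037 genes in 3 RWPE1 libraries. The authors made these counts with cutadapt, HISAT2 and featureCounts, aligning to GRCh38 and counting uniquely mapped, reversely stranded read pairs. Total counts ran from 16309906 in OLFM4-wild to 58837147 in OLFM4-knockout.

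Here, TMM factors were computed with edgeR 4.0.16 in R 4.3.3 and CPM from the scaled totals. Log2 ratios used an offset of 0.5 counts. Genes averaging 1 CPM or more across the libraries were compared, and a log2 ratio beyond 1 in size was counted as called. Exact 95% binomial intervals, conditional on the summed counts, cover counting error only, since read pairs without molecular identifiers are not independent molecules. A count of 0 was set to a limit of 3 counts only for the fold given as a minimum and for drawing keratin genes. Log2 ratios kept the offset of 0.5 counts there too. With 1 library per condition no test was run. Steps were tested on simulated data with known fold changes.

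Gene positions and lengths came from GENCODE version 44, matched for 98.2% of identifiers, and promoters from RefSeq GRCh38.p14. The members and gene lists were chosen with earlier results of these data known. Genes named are OLFM4, MYC, the olfactomedin and metallothionein genes, the 12 protein-coding and 6 other genes with the highest and lowest ratios among genes averaging 10 CPM or more, up to 4 genes each way per list and the best-known members of a list, beside those said to be picked later. A few genes that this rule names are not reported here. Library totals, DESeq2 1.42.0 size factors, upper quartile factors, TMM factors of the 2 libraries alone, totals without the 10 most abundant genes, an offset of 5 counts, thinning and other filters were tried as alternatives.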

Additional observations from a re-analysis of the deposited data

How the results depend on the processing

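Scaling by library totals lowered the median log2 ratio over all genes from 0.08 to -0.16 and gave 212 genes above 1 and 1135 below -1 in place of 490 and 563, so the balance between directions depends on the scaling. That balance also moved with upper quartile factors, which gave 350 and 762 genes, and with totals without the 10 most abundant genes, which gave 330 and 822. DESeq2 size factors gave 476 and 582. A filter at a mean of 10 CPM left 127 and 206 genes, no filter gave 4017 and 5901, and protein-coding genes alone gave 296 and 329. The OLFM4 ratio ranged from 1.59 to 1.91 wherever OLFM4 was compared, and it did not pass the 10 CPM filter. The median of the keratin list ranged from 0.75, with library totals, to 0.99. CRNN turned to -0.43 with an offset of 5 counts, having 3 and 0 counts. The median of the olfactomedin family turned to -0.0947 with the 10 CPM filter, which left OLFML2A alone. No paired analysis was possible because each condition has 1 library, and for the same reason no replicate could be left out. Variation between cultures or clones is not covered by any value here. Depth limits the scarce genes most, since 3 counts stand for 0.0584 CPM in the OLFM4-knockout library and 0.126 CPM in the library labelled OLFM4-active.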
